A study of Mus musculus with 8 samples.

Results

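The genes described here encode 9 transcription factors with a basic leucine zipper: the CCAAT/enhancer-binding proteins Cebpb, Cebpd and Cebpg, the small Maf proteins Mafk, Mafg and Maff, and the cap'n'collar (CNC) factors Nfe2l1 (Nrf1), Nfe2l2 (Nrf2) and Bach1. They were chosen by symbol, and all 9 have a row among the 24033 rows of the count table that name a gene. All 9 also passed the filter on low counts, which left 13639 genes. The libraries come from mouse lumbar dorsal root ganglia (L4 to L6), which hold the cell bodies of sensory neurons and their glia. The injury group holds ganglia on the side of a sciatic nerve crush, taken 24 h after it. The naive group holds ganglia of the other, uncrushed side of the same animals, so both groups come from mice that had undergone surgery. Each group has 4 libraries, and each repeat pooled the ganglia of 2 mice. The labels name the tissue as dissociated ganglia and give no transgene, drug or mutation. The sources used here do not state strain, sex or age.

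Leucine zipper factors bind DNA as dimers, and these families meet through their partners. C/EBPβ and C/EBPδ are inducible activators of inflammatory and acute-phase genes, whereas C/EBPγ lacks an activation domain and works largely as a partner, among others of Atf4. The small Mafs also lack an activation domain; they pair with CNC factors on antioxidant response elements (ARE) and with one another as repressors. Nrf2 is held at low level by Keap1 and activates detoxifying and antioxidant genes, Nrf1 resides in the endoplasmic reticulum membrane and activates proteasome genes, and Bach1 occupies related elements as a repressor until heme releases it. Much of this control acts on protein, and these data measure RNA only.

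Stretches of promoter are shown first because the dimers act on such sites and because several members are known to be regulated through them. RefSeq windows on GRCm38.p6, from 250 bases before to 50 after each annotated start, were given for 8 of the 9 members, in 14 windows. Each was searched on both strands for 6 motifs: TGACNNNGC (ARE), TTGCNNAA (C/EBP), TGANTCA (AP-1), TGACGTCA (CRE), TGATGNAA (C/EBP-ATF) and TTCNNNGAA (STAT). ARE letters were found in 5 of the 14 windows, 1 each for Cebpb, Mafk, Mafg, Nfe2l2 and Maff, and in 12.4% of all 32544 windows. The 3 Maff windows also held the C/EBP, CRE and STAT letters once each, and no other member window held these. The Bach1 and Cebpg windows and the 5 of Nfe2l1 held none of the 6. An ARE match can overlap an AP-1 match, and none did so in the members' windows. In the sequences below, written 5′ to 3′ on the gene's strand, capitals mark the ARE letters (their reverse complement for Mafk and Mafg). Up to 25 bases are shown on each side, fewer where the window begins or the start site is reached.
Cebpb, chr2:167688883-167688916 (plus strand): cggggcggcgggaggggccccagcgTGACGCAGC
Mafk, chr5:139791498-139791535 (plus strand): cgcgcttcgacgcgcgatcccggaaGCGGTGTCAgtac
Nfe2l2, chr2:75704870-75704913 (minus strand): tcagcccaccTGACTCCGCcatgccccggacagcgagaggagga
Maff, chr15:79346484-79346542 (plus strand): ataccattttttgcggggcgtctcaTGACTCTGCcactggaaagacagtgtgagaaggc
Mafg, chr11:120633736-120633794 (minus strand): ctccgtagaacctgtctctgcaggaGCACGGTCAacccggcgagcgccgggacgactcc
The first 3 belong to genes that were called higher after injury and the last 2 to genes that were not called; a match of letters is a description and not evidence of binding.

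Depth and library make-up bear on every value. Totals ran from 15422482 to 29368107 counts per library, and the members from 63 counts (Mafk in naive replicate 1) to 11249 (Nfe2l1 in naive replicate 4). CPM denotes counts after scaling by TMM-adjusted library size. Naive replicate 1 stood apart on the second principal component of log2 CPM, at 46.6 against -21.1 to 11.3 in the other libraries; without it the same 5 members were called higher as with it. The 8 markers of sensory neurons summed to 16650 to 18730 CPM in injury and 15590 to 17370 CPM in naive libraries, with 1 of them (Scn9a) called, as lower. In such bulk samples, more cells of a type and more RNA per cell cannot be told apart.

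Of the 9 genes, 5 were higher after injury and none was lower. Genes were compared by edgeR's quasi-likelihood test with Benjamini-Hochberg adjustment over all 13639 genes, and called at an adjusted p under 0.05. Over the whole table this called 12.6% of genes, 8.12% higher and 4.47% lower. With library totals in place of TMM scaling, 47.0% of calls over all genes were rises, against 64.5% with TMM. Cebpd, Mafk and Bach1 rose about equally, by 2.08-, 2.22- and 2.18-fold, and were called under each of the 16 alternatives run. Cebpb and Nfe2l2 rose less, by 1.42- and 1.26-fold, and were called in 8 and 9 of the 16. DESeq2 and limma-voom also called 5 higher and 0 lower. Like the main edgeR fit, they treat the libraries as independent, although the groups are sides of the same mice. The edgeR fit with the replicate number as a block, which compares sides within repeats, called 4 higher, without Cebpb (adjusted p = 0.0853). In the main fit 5 of the 9 had an unadjusted p under 0.05. The median log2 fold change was 0.33 over the 9 and -0.004 over all genes tested. Injury and naive values did not overlap, with injury higher, for 4 of the 9 (Cebpd, Cebpg, Mafk and Bach1), where 16.8% of all tested genes did not overlap in either direction and 9.8% did so with injury higher.

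**Figure D1:**
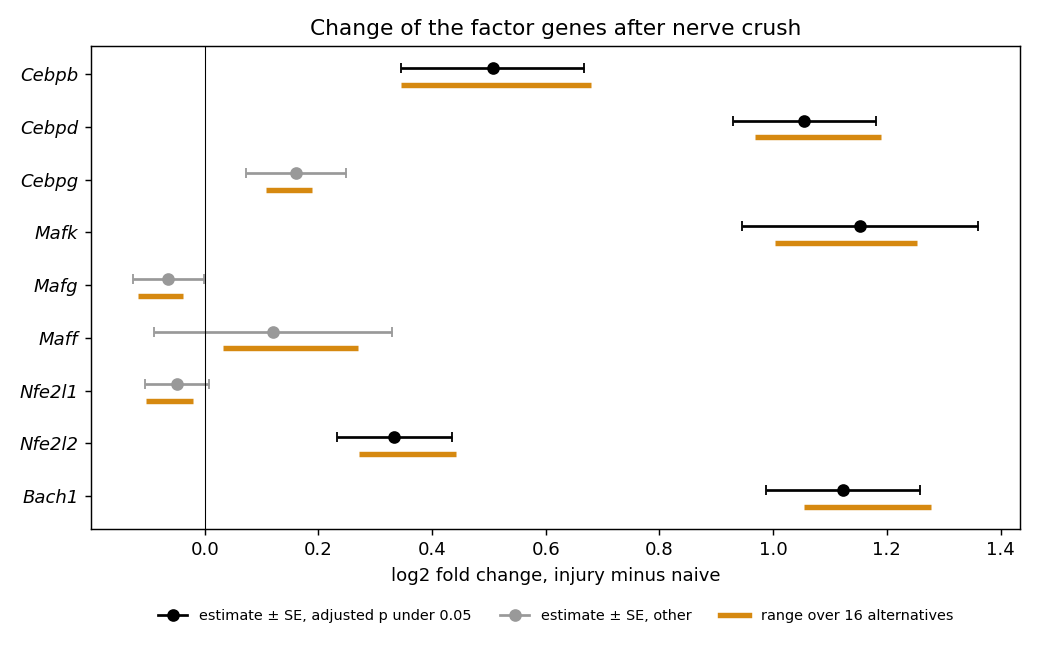
Log2 fold change of each factor gene, injury minus naive. Points are edgeR estimates with their SE, black where the adjusted p is under 0.05, and orange bars span the estimates under 16 alternatives. Cebpd, Mafk and Bach1 lie near 1.1, Nfe2l2 and Cebpb between 0.33 and 0.51, and the other 4 near 0.

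The levels kept nearly the same order in both groups. Each read marks the 3′ end of a transcript, so CPM was compared between genes without division by length. After injury the order of mean levels was Nfe2l1 (365 CPM), Mafg (224 CPM), Cebpg (51.9 CPM), Nfe2l2 (44.6 CPM), Cebpd (43.8 CPM), Cebpb (30.4 CPM), Bach1 (29.6 CPM), Mafk (10.6 CPM) and Maff (7.29 CPM). Among injury libraries the ranges of Nfe2l2 and Cebpd overlapped, as did those of Cebpb and Bach1, so these neighbours were not separated by their spread. In naive libraries Cebpb (21.4 CPM) and Cebpd (21.1 CPM) were the only neighbours whose ranges overlapped, and Mafk (4.74 CPM) lay below Maff (6.73 CPM). The places that changed were therefore those of Cebpd against Cebpb and of Mafk against Maff.

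**Figure D2:**
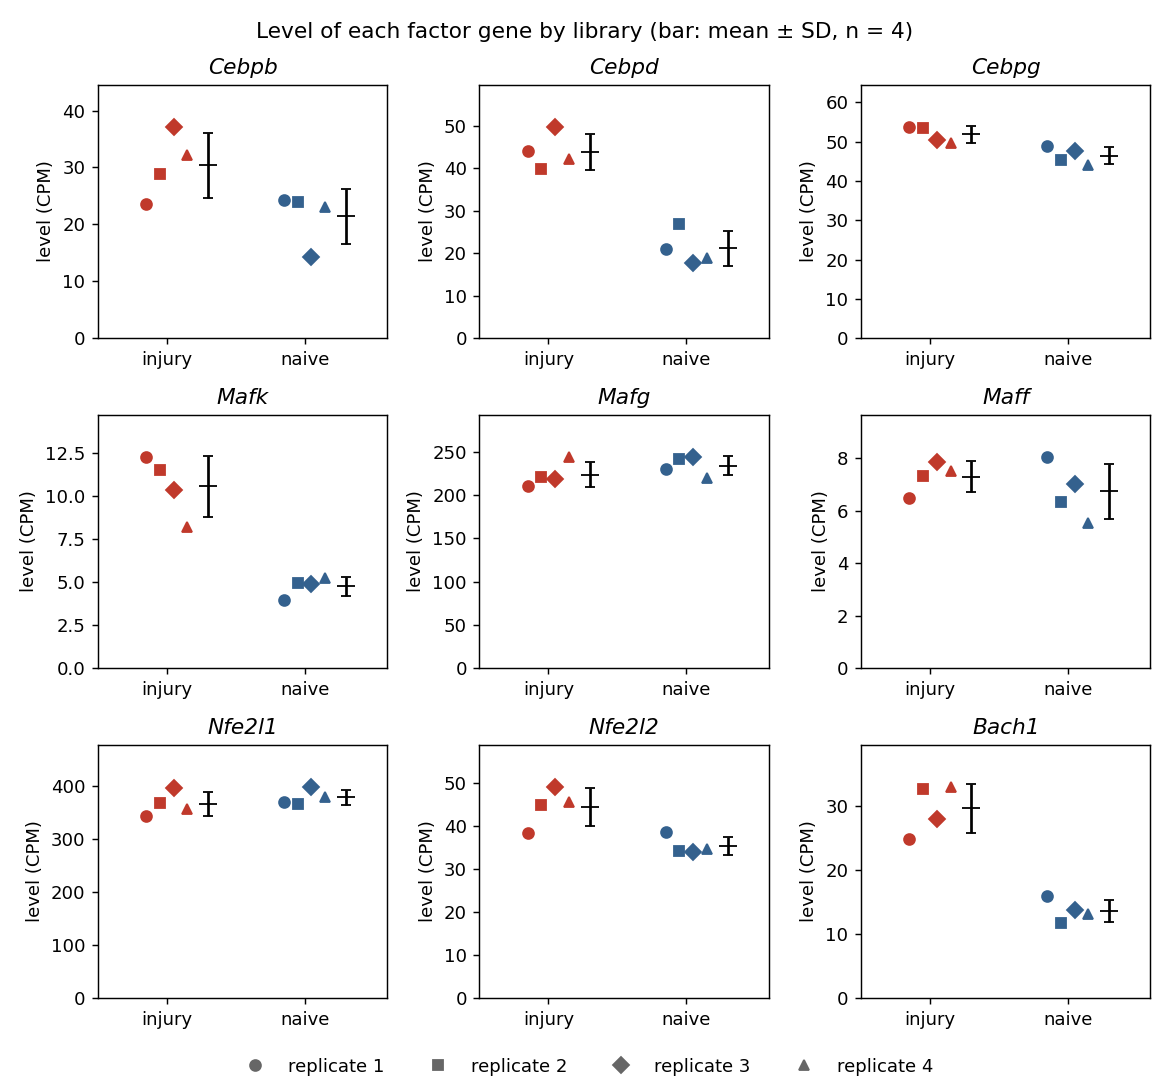
Level in CPM of each factor gene in the 4 injury libraries (red) and the 4 naive libraries (blue), with the mean ± SD to the right of each group. Marker shapes give the replicate number. Cebpd, Mafk, Bach1 and, by a narrow margin, Cebpg show no overlap, and replicate 1 shows no rise of Cebpb or Nfe2l2.

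Among the C/EBP genes, Cebpd changed most. Cebpd (ENSMUSG00000071637, chromosome 16, 15887286 to 15891031, plus strand; positions are GENCODE M21 genes on GRCm38) encodes C/EBPδ, an acute-phase activator that cytokine signals through Stat3 are known to induce. It had 44.0, 39.7, 49.6 and 42.1 CPM in injury replicates 1 to 4, against 21.0, 26.9, 17.6 and 19.0 CPM in naive replicates 1 to 4. Every injury library lay above every naive one. The means were 43.8 ± 4.24 and 21.1 ± 4.08 CPM (SD, n = 4 each), a log2 fold change of 1.06 ± 0.13 (SE) with an edgeR adjusted p of 1.51e-06. Cebpd overlaps Spidr on the opposite strand over 1808 bases. Spidr had 3.31 CPM in injury and 2.16 CPM in naive libraries and was not called (adjusted p = 0.290). The sources used here do not say whether counting used strand, so values of such overlapping pairs are uncertain.

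Cebpb (ENSMUSG00000056501, chromosome 2, 167688915 to 167690418, plus strand) encodes C/EBPβ, which drives inflammatory genes in macrophages and responds to many stress signals. It had 23.5, 28.8, 37.1 and 32.2 CPM in injury replicates 1 to 4, against 24.4, 23.9, 14.3 and 23.1 CPM in naive replicates 1 to 4. The groups overlapped: injury replicate 1 lay within the naive range, and naive replicate 3 was low. The means were 30.4 ± 5.72 and 21.4 ± 4.76 CPM, a log2 fold change of 0.51 ± 0.16 (SE, edgeR adjusted p = 0.0422). The call was lost with the replicate block, which compares the sides within each repeat (adjusted p = 0.0853), with library totals (0.0639) and without any one of injury replicates 2, 3 and 4 and naive replicates 2, 3 and 4 (0.0509 to 0.156). Without both libraries of number 1 the log2 fold change was 0.68 (adjusted p = 0.00680). Cebpb overlaps Tmem189 on the opposite strand over 908 of its 1504 bases; Tmem189 had 46.8 CPM in injury and 48.8 CPM in naive libraries (adjusted p = 0.822).

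Cebpg (ENSMUSG00000056216, chromosome 7, 35046422 to 35056573, minus strand), the partner without an activation domain, was the most abundant of the 3 C/EBP members. It had 53.7, 53.6, 50.5 and 49.7 CPM in injury replicates 1 to 4, against 48.8, 45.4, 47.6 and 44.0 CPM in naive replicates 1 to 4. All injury values were above all naive ones, but the difference was small. The log2 fold change was 0.16 ± 0.09 (SE), the edgeR adjusted p was 0.275, and no alternative called it. Cebpg overlaps Gm44836 and Gm45094 on its own strand over 1140 and 617 bases and the antisense gene Gm45095 over 353 bases, so its reads are uncertain too. Cebpg made up 41.3 ± 3.53% of the counts of the 3 C/EBP members in injury libraries and 52.5 ± 5.28% in naive ones, and Cebpd 34.7 ± 1.85% and 23.6 ± 2.87%.

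Mafk was the small Maf that changed. Mafk (ENSMUSG00000018143, chromosome 5, 139791513 to 139802653, plus strand) encodes MafK, a common partner of Nrf2 and Bach1. It had 12.3, 11.5, 10.3 and 8.18 CPM in injury replicates 1 to 4, against 3.96, 4.92, 4.87 and 5.22 CPM in naive replicates 1 to 4. The lowest injury library was above the highest naive one, and replicate 4 held the smallest within-repeat difference, 0.648 on the log2 scale, against 1.63 in replicate 1. The means were 10.6 ± 1.78 and 4.74 ± 0.546 CPM, a log2 fold change of 1.15 ± 0.21 (SE, edgeR adjusted p = 0.000341). Without both libraries of number 1 it was 1.00 (adjusted p = 0.00290). Mafk overlaps Tmem184a, which was below the filter, on the opposite strand over 169 bases.

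Mafg (ENSMUSG00000051510, chromosome 11, 120625117 to 120633600, minus strand), the most abundant small Maf gene, had 211, 221, 219 and 244 CPM in injury replicates 1 to 4. The naive values were 230, 241, 244 and 220 CPM. The groups overlapped throughout, with a log2 fold change of -0.06 ± 0.06 (SE, edgeR adjusted p = 0.593). Mafg shares 124 bases with Sirt7 on its own strand, where reads could be assigned to either gene. Maff (ENSMUSG00000042622, chromosome 15, 79346621 to 79359076, plus strand), known in other cells as a small Maf induced by stress and cytokines, had 6.46, 7.31, 7.86 and 7.51 CPM in injury replicates 1 to 4 and 8.04, 6.33, 7.01 and 5.52 CPM in the naive ones. These ranges overlapped, with a log2 fold change of 0.12 ± 0.21 (SE, adjusted p = 0.798). Mafg remained the bulk of the small Maf counts, at 92.6 ± 0.926% in injury and 95.3 ± 0.216% in naive libraries, while Mafk held 4.41 ± 0.936% and 1.94 ± 0.254%.

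Bach1, the repressor, rose most among the CNC genes. Bach1 (ENSMUSG00000025612, chromosome 16, 87698945 to 87733346, plus strand) had 24.8, 32.5, 28.0 and 32.9 CPM in injury replicates 1 to 4, against 15.9, 11.7, 13.7 and 13.1 CPM in naive replicates 1 to 4. Injury and naive libraries were well apart, and the repeat with the lowest injury and the highest naive value was the first. The means were 29.6 ± 3.86 and 13.6 ± 1.74 CPM, a log2 fold change of 1.12 ± 0.14 (SE, edgeR adjusted p = 1.88e-06). Within repeats the log2 difference ran from 0.645 in replicate 1 to 1.47 in replicate 2.

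Nfe2l2 (ENSMUSG00000015839, chromosome 2, 75675513 to 75704641, minus strand), which encodes the activator Nrf2, rose by less. It had 38.5, 45.0, 49.1 and 45.7 CPM in injury replicates 1 to 4, against 38.6, 34.3, 34.0 and 34.7 CPM in naive replicates 1 to 4. Injury replicates 2 to 4 were above all naive libraries, and the 2 libraries of replicate 1 had nearly the same value. The means were 44.6 ± 4.42 and 35.4 ± 2.13 CPM, a log2 fold change of 0.33 ± 0.10 (SE, edgeR adjusted p = 0.0287). The call held with the replicate block and was lost with library totals (adjusted p = 0.0658) and without any one of injury replicates 2, 3 and 4 and naive replicates 2, 3 and 4 (0.0725 to 0.118).

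Nfe2l1 (ENSMUSG00000038615, chromosome 11, 96817414 to 96829968, minus strand), which encodes Nrf1, was the most abundant of the 9, above 97.1% of tested genes in naive libraries. It had 343, 368, 396 and 356 CPM in injury replicates 1 to 4 and 370, 366, 398 and 379 CPM in the naive ones. The ranges overlapped, with a log2 fold change of -0.05 ± 0.06 (SE, edgeR adjusted p = 0.674). Among the counts of the 3 CNC members, Nfe2l1 held 83.2 ± 1.12% in injury and 88.5 ± 0.914% in naive libraries, Nfe2l2 10.1 ± 0.455% and 8.30 ± 0.596%, and Bach1 6.73 ± 0.834% and 3.18 ± 0.388%.

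Since only some genes of each family were called, the difference between family members was tested directly. A ratio of counts of 2 genes in 1 library does not depend on how libraries are scaled. All 9 ratios within families were compared by a two-sided exact permutation test of the mean log2 ratio over the 4 and 4 libraries, where the smallest p possible is 0.0286. The choice to test ratios was made after the values were seen. Of the 9, 7 reached that smallest value (Benjamini-Hochberg adjusted p = 0.0367 over the 9), with injury above naive in all 4 repeats for each. Ratios within a family share genes, so the 7 are not separate results. All of them but Nfe2l2 to Nfe2l1 have Cebpd, Mafk or Bach1 as numerator. The permutation test treats the 8 libraries as independent, whereas same-numbered ones are sides of the same mice. Exchanging the sides within repeats cannot give a two-sided exact p below 0.125, which these 7 ratios reached (adjusted p = 0.161), so the paired test called none.

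The ratio of Cebpd to Cebpb was 1.87, 1.38, 1.34 and 1.30 in injury replicates 1 to 4, against 0.863, 1.13, 1.23 and 0.822 in naive replicates 1 to 4. Cebpd counts thus exceeded Cebpb counts in all injury libraries and in 2 of the naive ones. The ratio of Mafk to Mafg was 0.0582, 0.0520, 0.0471 and 0.0336 in injury libraries and 0.0172, 0.0204, 0.0200 and 0.0237 in naive libraries. The ratio of Bach1 to Nfe2l2, repressor to activator, was 0.645, 0.723, 0.569 and 0.720 in injury libraries and 0.412, 0.342, 0.403 and 0.377 in naive libraries. These 3 ratios were higher after injury by 0.55, 1.21 and 0.79 on the log2 scale, with both groups apart in each. The ratios of Cebpb to Cebpg (difference 0.36, exact p = 0.200) and of Maff to Mafg (difference 0.19, exact p = 0.143) overlapped between the groups. The remaining 4 were Cebpd to Cebpg, Mafk to Maff, Bach1 to Nfe2l1 and Nfe2l2 to Nfe2l1, with differences of 0.91, 1.02, 1.17 and 0.38.

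**Figure D3:**
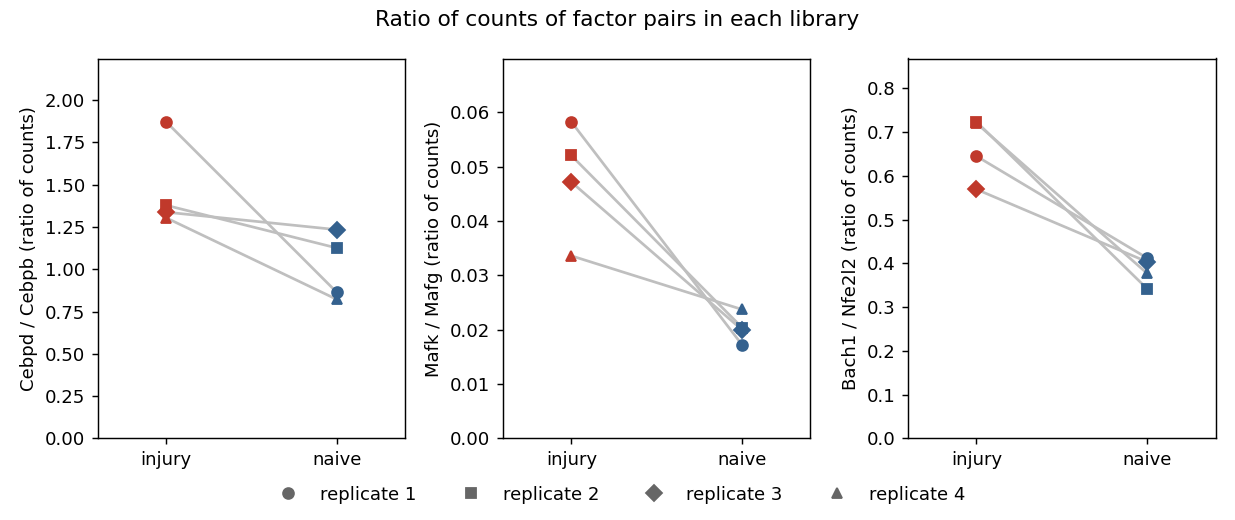
Ratio of counts of Cebpd to Cebpb, Mafk to Mafg and Bach1 to Nfe2l2 in each library, injury (red) beside naive (blue). Grey lines join the sides of 1 repeat, and marker shapes give the replicate number. Each line is higher on the injury side, and the injury and naive values do not overlap in any of the 3 panels.

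Of 4 other genes listed with the C/EBP genes by name or by family, 3 were tested and 1 rose. This is 33.3%, against 12.6% of all genes called in either direction. The gene that rose was Ddit3 (CHOP), a stress-induced C/EBP that lacks normal DNA binding. It had 56.3 ± 3.89 CPM in injury and 40.7 ± 3.11 CPM in naive libraries (log2 fold change 0.47, edgeR adjusted p = 0.00105). Cebpa and Cebpz had log2 fold changes of -0.14 and -0.03, and Cebpe was below the filter with 47 counts in all injury libraries and 40 in all naive ones. Of 7 large Maf and other CNC genes, 4 were tested and 1 fell, a share of 25%. Bach2, a repressor related to Bach1 that is best known in lymphocytes, had 28.9 ± 3.52 CPM in injury and 38.7 ± 6.22 CPM in naive libraries (log2 fold change -0.42, adjusted p = 0.0229). The call was lost without any one of injury replicates 2, 3 and 4 and naive replicate 2, with an adjusted p of up to 0.124.

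Of 11 genes that control the stability of the Nrf proteins, 10 were tested, 2 rose and 1 fell, 30% against 12.6% of all genes, and 2 of these 3 calls were lost under some alternatives. Sqstm1 (p62), an autophagy adaptor that binds Keap1, had 988 ± 22.3 CPM in injury and 846 ± 5.75 CPM in naive libraries, a 1.17-fold rise (edgeR adjusted p = 0.00162). Keap1, its ligase partners Cul3 and Rbx1, and Ngly1, which processes Nrf1, had log2 fold changes of 0.01, 0.003, 0.003 and 0.02, none called. Gsk3b, a kinase that marks Nrf2 for degradation, rose 1.22-fold, a call lost in 10 of 16 alternatives. Fbxw7, a ligase subunit known to act on Nrf1, had a log2 fold change of -0.19 (adjusted p = 0.0406) and was not called without any one of injury replicates 2, 3 and 4 or naive replicates 1, 3 and 4. Over the alternatives the adjusted p reached 0.193 for Gsk3b, without both libraries of number 1, and 0.107 for Fbxw7, without naive replicate 4.

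Known ARE targets moved in part. Of 25 listed genes, 22 were tested, 3 rose and 1 fell, a called share of 18.2% against 12.6% of all genes; the list's median log2 fold change was 0.03 and that of all genes -0.004. Srxn1, sulfiredoxin, which restores oxidised peroxiredoxins, had 838, 1166, 1120 and 1245 CPM in injury replicates 1 to 4, against 476, 496, 499 and 481 CPM in naive replicates 1 to 4. The groups were far apart, 2.24-fold (log2 fold change 1.16 ± 0.10, SE; edgeR adjusted p = 4.38e-06). Txnrd1, thioredoxin reductase, had 111 ± 9.65 CPM in injury and 63.4 ± 4.59 CPM in naive libraries, 1.75-fold higher (adjusted p = 1.19e-07). Taldo1, of the pentose phosphate pathway, rose 1.34-fold (adjusted p = 9.89e-06).

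The other tested ARE targets on the list were not called higher. Among them, G6pdx had all injury values above all naive ones, with a log2 fold change of 0.23 (edgeR adjusted p = 0.256). Without injury replicate 1, 4 genes of the list were called higher. Gclc, the catalytic subunit of glutathione synthesis, was lower after injury, at 48.6 ± 3.31 CPM against 60.7 ± 2.38 CPM in naive libraries (edgeR adjusted p = 0.0137; 0.0536 without injury replicate 2). Its modifier subunit Gclm had 101 CPM in injury and 102 CPM in naive libraries, Nqo1 4.63 and 5.01 CPM and Hmox1, heme oxygenase and a textbook target of Bach1 repression, 11.8 and 12.6 CPM, with adjusted p of 0.939, 0.871 and 0.803. Gstp1 was listed at 0 in all libraries, and Slc7a11 and Ftl1 were below the filter, with 51 and 37 counts in all injury libraries and 23 and 16 in all naive ones. Of 9 heme and iron genes, 8 were tested and none was called by edgeR, DESeq2 or limma-voom, and 1 (Alas1) had an unadjusted p under 0.05; without both libraries of number 1, 1 gene was called lower.

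Windows were also searched for the 4 called ARE targets, chosen after the values were seen. The 1 window of Taldo1 held none of the 6 motifs, and none was given for Gclc. The Srxn1 window held AP-1 letters at 2 places upstream of the start, against 7.79% of all windows with any AP-1 match, and ARE letters once past the start. The second AP-1 match is followed by gc. It thus departs from the searched ARE letters in 1 base only, and was not counted as ARE. Of 3 Txnrd1 windows, 1 held ARE letters, as the reverse complement. Capitals mark the AP-1 and ARE letters upstream of the start.
Srxn1, chr2:152105397-152105453 (plus strand): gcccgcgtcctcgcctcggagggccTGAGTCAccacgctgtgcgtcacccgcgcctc
Srxn1, chr2:152105454-152105510 (plus strand): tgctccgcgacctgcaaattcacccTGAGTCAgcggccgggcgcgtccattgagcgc
Txnrd1, chr10:82859089-82859147 (plus strand): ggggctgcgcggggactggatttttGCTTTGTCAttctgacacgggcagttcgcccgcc

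Proteasome subunits, the targets of Nrf1, gave 4 rises and no fall among 31 tested genes. This is 12.9% called, against 12.6% of all genes called in either direction and 8.12% called higher. All subunits but Psma2 (-0.07) and Psmd14 (-0.0004) had a positive log2 fold change, as had 49.3% of all genes tested. Most of these changes were small and not called, and no test of the set was run. Psmd11 rose 1.30-fold, Psmb2 1.26-fold, Psma7 1.19-fold and Psmd8 1.18-fold, with edgeR adjusted p from 0.000353 to 0.00712. The list's median log2 fold change was 0.08.

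Of 18 acute-phase and inflammatory genes with known C/EBP sites, 14 were tested, 3 rose and none fell, 21.4% called against 12.6% of all genes. Il6, the cytokine whose promoter gave C/EBPβ its first name, had 6.46, 7.50, 8.12 and 7.03 CPM in injury replicates 1 to 4, against 1.63, 0.319, 1.12 and 0.404 CPM in naive replicates 1 to 4. No naive library reached the lowest injury value, with a log2 fold change of 3.12 ± 0.39 (SE, edgeR adjusted p = 3.76e-06). Naive libraries held 26, 7, 25 and 12 counts of Il6. Serpina3n, an acute-phase protease inhibitor, rose 1.47-fold (adjusted p = 3.56e-05), and Socs3, a feedback inhibitor of cytokine receptors, 1.31-fold (adjusted p = 0.00924; 0.0639 without injury replicate 3). The chemokine gene Ccl2 had 14.4 CPM in injury and 14.2 CPM in naive libraries and the complement gene C3 2.31 and 3.01 CPM, neither called. The list's median log2 fold change was 0.02.

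Of 14 genes of the Atf4 amino acid response, in which C/EBPγ and Ddit3 are partners, 11 were tested, 7 rose and none fell, 63.6% called against 12.6% of all genes, with a median log2 fold change of 0.44. Higher levels of several of them were known from earlier work on these data when the list was written, so the share is not independent evidence. Chac1, which degrades glutathione, had 34.1 ± 2.60 CPM in injury and 12.5 ± 2.29 CPM in naive libraries (edgeR adjusted p = 3.93e-08). The amino acid transporter subunit Slc3a2 rose 1.37-fold and the alanyl-tRNA synthetase gene Aars 1.36-fold, with adjusted p of 3.08e-05 and 0.000284, and Ddit3 is given above.

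**Figure D4:**
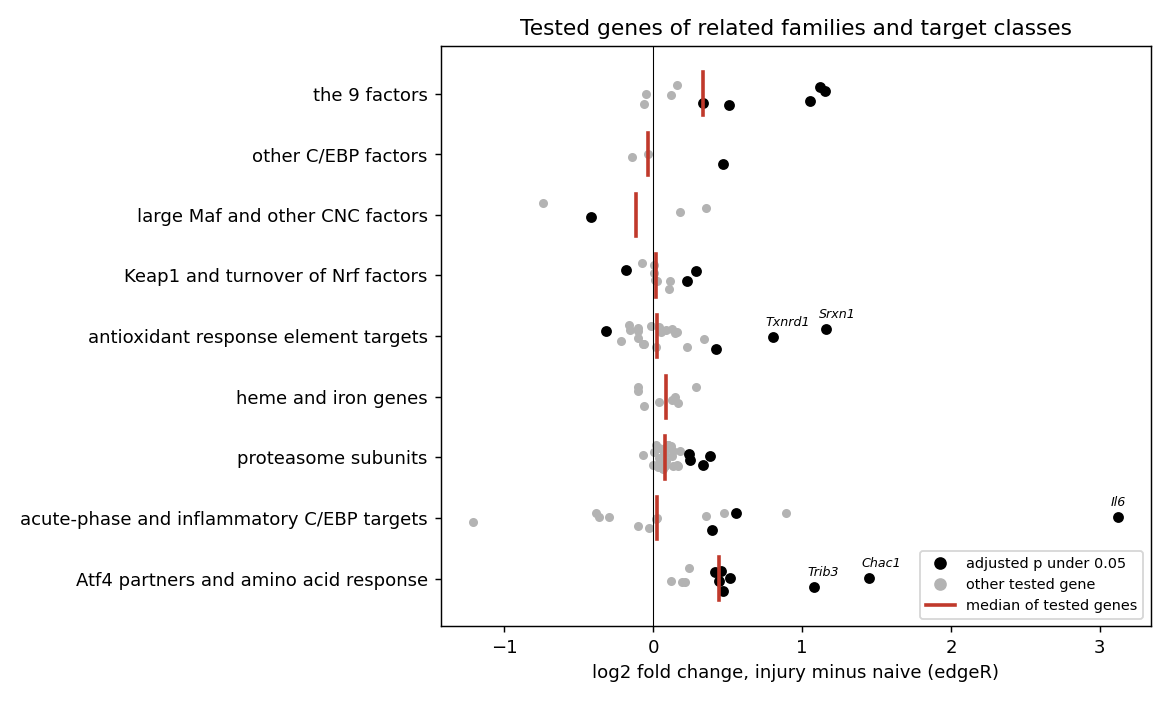
Log2 fold change, injury minus naive, of each tested gene in the 9 factors and in 8 lists of relatives, regulators and known targets. Black points have an edgeR adjusted p under 0.05, grey points do not, and red bars are medians. The medians are 0.33 for the 9 factors, 0.44 for the Atf4 list and between -0.12 and 0.08 for the other 7 lists.

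The genes whose pattern over the 8 libraries was most like that of the 3 strongest members were found by the root mean square difference of log2 CPM, each gene centred on its own mean, among 9799 genes averaging 5 CPM or more, without the members and symbols of the Gm and Rik kind. For Cebpd they were Slc4a8, Wisp1 and Coil (differences of 0.126, 0.173 and 0.181). For Bach1 they were Ifrd1, Pcnx and Cd63 (0.0943, 0.104 and 0.114), and for Mafk Ddx58, Lrrc55 and Rps6ka1 (0.180, 0.190 and 0.193). Their log2 fold changes ran from 0.84 to 1.14, and all 9 were called. Both follow from picking genes close to members that were themselves called, over the same libraries.

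Cells other than neurons can express these factors too, and these bulk data do not show which cells did. None of the 8 tested of 10 macrophage markers and none of the 5 tested of 7 neutrophil markers was called by edgeR. The summed macrophage markers ran from 13.6 to 23.4 CPM in injury and from 11.3 to 22.9 CPM in naive libraries, and the neutrophil markers from 121 to 246 CPM and from 131 to 427 CPM. Naive replicate 3, with the lowest Cebpb and Cebpd, also had the lowest macrophage sum (11.3 CPM). Injury replicate 3, with the highest of both, had the lowest macrophage sum among injury libraries (13.6 CPM). These are single libraries, and a link between macrophage markers and the members was not tested. The tested macrophage markers were low, with no group mean above 5.985 CPM, and differed in direction. Cx3cr1 and Mrc1 had log2 fold changes of 1.11 and 0.77, and Itgam and C1qb of -0.75 and -0.67. Schwann cell markers summed to 699 to 895 CPM in injury and 715 to 1073 CPM in naive libraries, with 0 of 6 called, and endothelial markers to 99.9 to 162 CPM and 92.7 to 128 CPM, also with 0 of 6 called. Within repeats the endothelial and the sensory neuron sums were higher on the injury side in 4 of 4, and their part in the members' values was not tested. Satellite glial markers summed to 1293 to 1494 CPM and 1169 to 1512 CPM, with 1 of 5 (Glul, log2 fold change 0.49) called higher. Fabp7, Cdh19, Apoe and Kcnj10 had log2 fold changes of -0.42, -0.87, -0.01 and 0.04, none called. Fibroblast markers summed to 157 to 239 CPM and 148 to 299 CPM, with 1 of 5 (Pdgfra, log2 fold change 1.16) called higher. Col1a1, Lum, Dcn and Col1a2 had log2 fold changes of -0.64, -0.204, -0.07 and 0.009, none called. The 3 listed T cell markers present in the table totalled at most 0.257 CPM in any library, with Cd3g at 0 throughout, and the red cell markers at most 2.42 CPM.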

How the data were processed

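Libraries were 3′-end RNA-seq (QuantSeq REV) of total RNA, per the labels' protocols. The deposited table holds raw, whole-number counts per gene symbol; bcl2fastq 2.17, STAR and HTSeq with GRCm38/mm10 are named in the submitters' processing notes, and no source used here names the annotation or the strand setting. The 27 rows with a date for a symbol (0.146% to 0.158% of counts) were left out. Genes were tested with edgeR 4.0.16 in R 4.3.3 (filterByExpr, TMM, robust quasi-likelihood F-test, 4 injury against 4 naive, no block); each SE was derived from the log2 fold change and its F statistic. Other settings were DESeq2 1.42.0 and limma-voom (limma 3.58.1) as tools, library totals or DESeq2 size factors for scaling, no filter or one at 5 CPM on average, the replicate number as a block, and fits without each library or without both of number 1. Same-numbered libraries are sides of the same mice per the study design. Their deviations from group means correlated at 0.0352 to 0.0569 over 13639 genes. Injury and naive libraries of different number correlated at -0.084 to 0.0378. Libraries of a group differed by more than sampling noise (chi-square over its degrees of freedom, 8.09 to 19.2). A count of 0 allows up to 0.102 to 0.195 CPM per library, at 3 counts and for counting error only. Named genes were all members, up to 4 called genes with the smallest p per list, called genes against their list's direction, and the 3 nearest patterns to the 3 strongest members. Members and lists were chosen with earlier results of these data known. Genes named though not called, the ratios and the target windows were chosen after values were seen.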

Additional observations from a re-analysis of the deposited data

Results flagged for a closer look

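In 2 of the 18 sets of 4 values (9 genes in 2 groups), 1 library lay far from the other 3; chance alone flags about 1 set in 20. Cebpb in naive replicate 3 was 14.3 CPM, against 23.1 to 24.4 CPM in the other naive libraries. Nfe2l2 in naive replicate 1 was 38.6 CPM, against 34.0 to 34.7 CPM in the other naive libraries. Without naive replicate 3 the log2 fold change of Cebpb was 0.34 (edgeR adjusted p = 0.146), and without naive replicate 1 that of Nfe2l2 was 0.38 (adjusted p = 0.0181).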

How the results depend on the processing

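No member changed direction under any of the 16 alternatives. The number of members called higher was 5, and 3 with library totals; leaving out each library in turn gave 3 to 5, the lost genes being Cebpb and Nfe2l2. With the replicate block it was 4: Cebpb had a log2 fold change of 0.51 but an adjusted p of 0.0853, and no other member's call changed. Members called lower stayed at 0. Over all genes, library totals gave 1001 lower calls in place of 609; the cause was not tested. Leaving out each library gave 847 to 1156 higher and 452 to 703 lower. Over the alternatives the log2 fold change ran from 0.97 to 1.19 for Cebpd, 1.00 to 1.25 for Mafk and 1.06 to 1.28 for Bach1, with an adjusted p of at most 3.06e-05, 0.00290 and 3.84e-05. Of 28 named genes that are no members, 23 were called under every alternative that tested them and none turned direction. All 28 were picked among genes called in the main fit, so this follows in part from the choice. Genes mentioned though not called are not among them. The 9 ratios kept their sign without each library; exchanging sides within repeats, an alternative added after the data were seen, called none of them (smallest p 0.125). Maff and Mafk rest on the fewest counts, from 124 and 63 per library. Mice were pooled by 2, so p-values measure spread between pools.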
